A study of Mus musculus with 6 samples.

Results

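The Z-disc and stretch-sensing genes described here are 10 genes of the sarcomere border, Actn2, Actn3, Ldb3, Flnc, Myoz1, Myoz2, Tcap, Csrp3, Ankrd1 and Ankrd2, out of 20900 genes that could be tested. Their probes were found through the RefSeq accession that the array gives each probe. There were 11 such probes, 2 for Ldb3 and 1 for each other gene, and all 11 were well above background on all 6 arrays. Total RNA came from the gastrocnemius muscle of male mice, 3 young (13 weeks of age) and 3 aged (26 months of age), with 1 single-colour Agilent array per mouse. No mouse carried a stated mutation or treatment. The study's methods name C57BL/6J mice, and the sample labels give no strain. The labels number the mice within each group, and nothing in them says whether RNA was pooled.

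The Z-disc is the lattice that joins neighbouring sarcomeres, in which alpha-actinin crosslinks the ends of the thin filaments and anchors titin. It is also a sensing site, because several of its proteins bind titin or signalling enzymes and some of them can move to the nucleus when muscle is stretched or loaded. In a bulk muscle sample, fewer fibres of a type and less RNA per fibre cannot be told apart. Signals are given as log2 values relative to the 75th percentile of all probes of the array, so that 0 is that percentile. They are compared between mice for one probe at a time and not between probes.

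Of the 10 genes, Ankrd1 stood furthest from equality, with a mean 10.7-fold higher in aged mice, and Csrp3, Flnc and Ankrd2 followed with means 2.29-fold, 1.66-fold and 1.65-fold higher. Tcap (0.772-fold) and Myoz1 (0.820-fold) were lower in all 3 aged mice than in any young mouse. None of the 10 genes passed an adjusted p of 0.05 in limma, the threshold used throughout. Of all genes tested, 0.254% passed it, 41 higher (0.196%) and 12 lower (0.0574%) in aged mice (26 higher and 16 lower with scaling to the median of each array). At an unadjusted p under 0.05, 2 of the 10 genes (Ankrd1 and Flnc) were higher and 0 were lower, whereas 6.07% of all genes were higher and 8.36% lower. The groups did not overlap for 4 of the 10 genes, 2 higher (Ankrd1 and Flnc) and 2 lower (Myoz1 and Tcap) in aged mice. Over all genes, 21.8% did not overlap, 7.92% higher and 13.9% lower.

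The mean was higher in aged mice for 7 of the 10 genes and lower for 3, where 43.1% of all genes had a higher mean. Quantile normalization gave 8 higher and 2 lower, and scaling to the median gave 5 and 5. The median log2 fold change of the 10 genes was 0.16, against -0.06 over all 20900 genes. It was 0.05 without aged mouse 1, 0.04 without young mouse 3 and 0.02 with scaling to the median. A median over so few genes describes them and was not tested. With 3 mice in each group, the smallest p of an exact two-sided permutation test is 0.1.

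**Figure D1:**
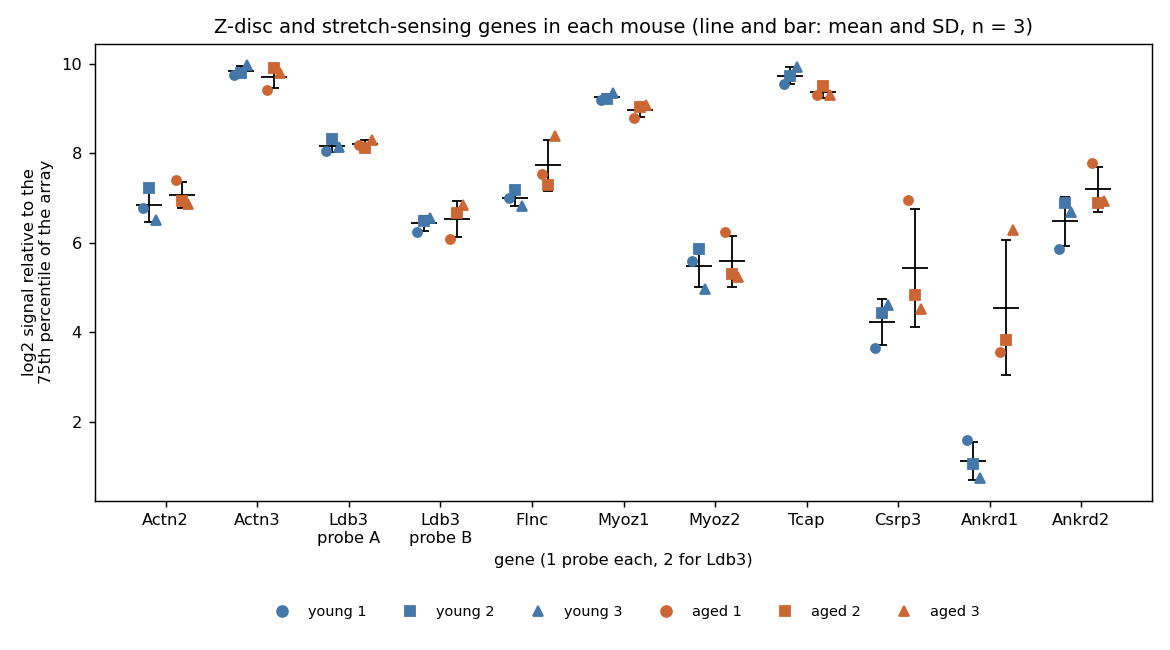
Log2 signal of the 11 probes relative to the 75th percentile of the array (vertical axis) for each gene (horizontal axis), with young mice in blue, aged mice in orange, and the mean and SD of each group (n = 3) as a line and bar. Ldb3 probe A was designed on NM_001039076 and probe B on NM_011918. Ankrd1 is the gene with the widest gap, from 1.58 in the highest young mouse to 3.56 in the lowest aged mouse.

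Actn2 encodes the alpha-actinin found in all skeletal muscle fibres and in the heart. Its signal in mice 1, 2 and 3 was 6.79, 7.23 and 6.50 for the young and 7.39, 6.93 and 6.86 for the aged, the order kept below. Aged mouse 1 was the highest of the 6 and young mouse 3 the lowest, and the groups overlapped. The log2 fold change was 0.22 (limma, SE 0.25, adjusted p = 0.707), and it was 0.05 without either aged mouse 1 or young mouse 3. Actn3 encodes the alpha-actinin restricted to fast glycolytic fibres. It was at 9.75, 9.78 and 9.97 in young mice and 9.42, 9.90 and 9.79 in aged mice, with aged mouse 1 below the other 5 mice. Its log2 fold change was -0.14 (95% interval -0.58 to 0.31, adjusted p = 0.764 from limma), but 0.07 after quantile normalization.

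Ldb3, also called ZASP or Cypher, encodes a PDZ and LIM domain protein that binds alpha-actinin. Its brighter probe, designed on NM_001039076, was at 8.04, 8.31 and 8.15 in young mice and 8.19, 8.12 and 8.30 in aged mice. The other probe, on NM_011918, was at 6.24, 6.49 and 6.56 in young mice and 6.08, 6.66 and 6.85 in aged mice. Both probes overlapped between the groups. Their log2 fold changes were 0.04 (95% interval -0.34 to 0.41) and 0.10 (-0.47 to 0.67) from limma. The first was -0.11 with scaling to the median.

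Flnc encodes filamin C, the actin crosslinker of muscle that collects at the Z-disc, at the fibre membrane and at sites of myofibril damage. Its signal was 6.99, 7.17 and 6.83 in young mice and 7.52, 7.28 and 8.38 in aged mice. All 3 aged mice were above every young mouse, but aged mouse 2 by only 0.11 on the log2 scale. The log2 fold change was 0.73 (limma, SE 0.30, adjusted p = 0.337, or 0.0456 unadjusted). Without aged mouse 3, which was highest, it was 0.41.

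The calsarcins and telethonin are small proteins that tie alpha-actinin, filamin and titin together. Myoz1 encodes calsarcin-2 of fast fibres, which also binds the phosphatase calcineurin. It was at 9.19, 9.21 and 9.33 in young mice and 8.79, 9.02 and 9.07 in aged mice, with the whole aged group below the young one. Myoz2 encodes calsarcin-1 of slow fibres and the heart. It was at 5.59, 5.87 and 4.97 in young mice and 6.23, 5.29 and 5.22 in aged mice. Aged mouse 1 was again the highest and young mouse 3 the lowest. The log2 fold changes were -0.29 for Myoz1 (limma, SE 0.16, adjusted p = 0.450) and 0.11 for Myoz2 (limma, SE 0.35, adjusted p = 0.904). That of Myoz2 was -0.22 without aged mouse 1, -0.15 without young mouse 3 and -0.04 with scaling to the median.

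Tcap encodes telethonin, which caps the ends of 2 titin molecules at the Z-disc. Its signal was 9.55, 9.73 and 9.92 in young mice and 9.29, 9.50 and 9.29 in aged mice. All 3 aged mice were below the lowest young mouse, aged mouse 2 by only 0.05 on the log2 scale, and the log2 fold change was -0.37 (limma, SE 0.17, adjusted p = 0.376). It stayed between -0.52 and -0.19 in every alternative run. Bright probes in general were somewhat lower in aged mice at this scaling. The 406 genes with a mean signal above 8, which include Tcap, Myoz1, Actn3 and Ldb3, showed a median log2 fold change of -0.16, and in aged mouse 1 their median difference from the young mice was -0.32. How much of the Tcap and Myoz1 differences this accounts for was not tested. After quantile normalization, Tcap was at -0.19 and Myoz1 at -0.15.

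Csrp3 encodes muscle LIM protein, a partner of telethonin and alpha-actinin that is found at the Z-disc and in the nucleus and is known to increase with load and in slow fibres. Its signal was 3.66, 4.43 and 4.62 in young mice and 6.95, 4.82 and 4.53 in aged mice. Aged mouse 1 lay far above the other 5 mice, whereas aged mouse 3 lay below young mouse 3. The group values were 4.24 ± 0.51 for the young and 5.43 ± 1.32 for the aged group (SD, n = 3), with a log2 fold change of 1.20 (limma, SE 0.64, adjusted p = 0.437). Without aged mouse 1 it was 0.44 (adjusted p = 0.516 from limma, between 0.0998 and 0.630 over all alternatives).

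Ankrd1 and Ankrd2 encode the muscle ankyrin repeat proteins CARP and ARPP, which bind the spring region of titin and also act in the nucleus. Both are textbook genes of stretched, injured or denervated muscle, and Ankrd1 is a known target of the YAP and TEAD factors. Ankrd1 was at 1.58, 1.06 and 0.74 in young mice and 3.56, 3.82 and 6.28 in aged mice. Every aged mouse was above every young mouse by at least 1.97 on the log2 scale, and aged mouse 3 stood well above the other aged mice. The group values were 1.13 ± 0.42 for the young and 4.55 ± 1.50 for the aged group (SD, n = 3).

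The log2 fold change of Ankrd1 was 3.42 (limma, SE 0.70, adjusted p = 0.139, or 0.00195 unadjusted), which is 10.7-fold with a 95% interval of 3.37-fold to 34.2-fold. It ranked 26 among all 20900 genes by the size of the increase. No alternative brought it past the threshold, with adjusted p between 0.0742 (without aged mouse 1, log2 fold change 3.92) and 0.384 from limma. Without aged mouse 3 the log2 fold change was 2.56. Blocking on the array's slide row, which sets aged mouse 1 alone against the young mice of the same row, gave 2.43.

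Ankrd2 was at 5.85, 6.88 and 6.69 in young mice and 7.77, 6.88 and 6.93 in aged mice. Aged mouse 1 was the highest, aged mice 2 and 3 lay close to young mouse 2, and the groups overlapped. The log2 fold change was 0.72 (limma, SE 0.36, adjusted p = 0.412). It was 0.43 without aged mouse 1 and 0.41 without young mouse 1, which was the lowest.

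**Figure D2:**
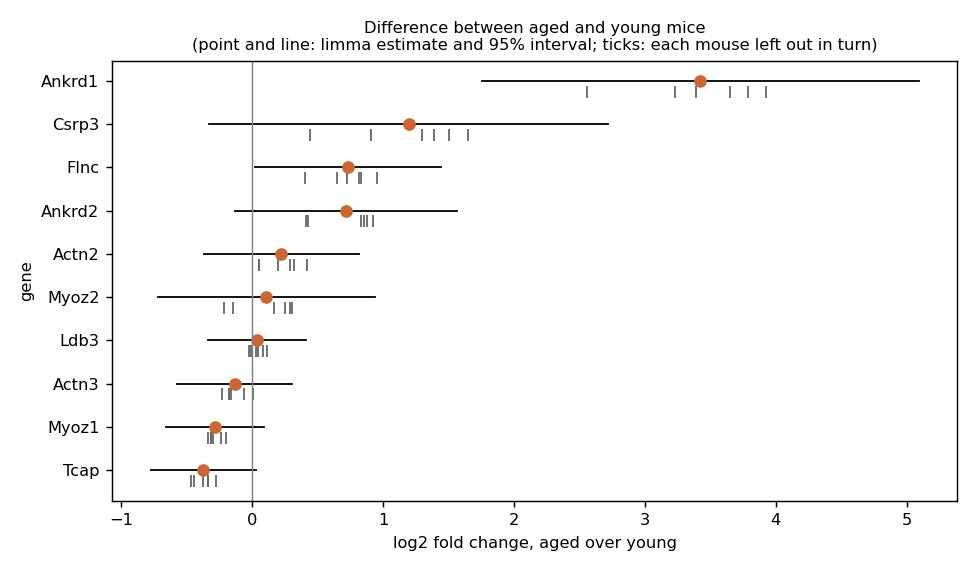
Log2 fold change of aged over young mice (horizontal axis) for the 10 genes (vertical axis), with the limma estimate as a point, its 95% interval as a line, and the estimates with each mouse left out in turn as ticks. The intervals of Ankrd1 (1.75 to 5.09) and Flnc (0.02 to 1.44) lie above 0, the other 8 include it, and none of the 10 genes passed the adjusted threshold.

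The promoters of these related genes are shown because the groups did not overlap for Ankrd1 but did for its relative Ankrd2. Each line is the RefSeq sequence of the 250 bases before the transcription start in GRCm38.p6, 5′ to 3′ on the strand of the gene. The Ankrd1 window is chr19:36119845-36120094 on the minus strand and the Ankrd2 window chr19:42035777-42036026 on the plus strand. Capitals mark the M-CAT motif (CATTCC on either strand, read here as GGAATG), which TEAD factors bind, and the E-box (CANNTG), which factors such as MyoD and myogenin bind.
Ankrd1: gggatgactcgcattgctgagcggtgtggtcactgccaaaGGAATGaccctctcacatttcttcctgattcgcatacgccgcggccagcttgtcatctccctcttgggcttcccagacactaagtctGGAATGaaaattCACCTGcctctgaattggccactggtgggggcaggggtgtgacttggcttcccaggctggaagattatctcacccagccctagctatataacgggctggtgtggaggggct
Ankrd2: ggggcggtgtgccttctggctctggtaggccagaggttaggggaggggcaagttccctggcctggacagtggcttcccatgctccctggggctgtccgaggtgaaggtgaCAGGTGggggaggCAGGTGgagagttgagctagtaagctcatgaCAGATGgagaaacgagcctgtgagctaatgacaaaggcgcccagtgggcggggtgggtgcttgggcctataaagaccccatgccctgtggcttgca
The Ankrd1 window held 2 M-CAT motifs, 210 and 123 bases before the start, and 1 E-box. The Ankrd2 window held 3 E-boxes and 0 M-CAT motifs. Of 32851 RefSeq promoter windows of this length, 12.6% held an M-CAT motif and 66.2% an E-box, so an E-box is common. A match of letters is a description and does not show that a factor binds there.

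RefSeq promoter entries matched 7 of the 10 genes, in 10 windows. The 2 Csrp3 windows each held 4 E-boxes and the Actn2 window 3. The Myoz2 window held 2 E-boxes and a MEF2 site (found in 1.69% of all windows), and both overlapping Ldb3 windows held the same CArG box, the motif of SRF (1.47% of all windows). One of the 2 overlapping Flnc windows held an M-CAT motif, 104 bases before the start. None of these windows other than those of Ankrd1 and Flnc held an M-CAT motif. Actn3, Myoz1 and Tcap had no entry in the promoter table used.

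Relatives with different fibre types or stimuli were compared within each array. A scaling that shifts all probes of an array alike drops out of such a difference, but a shift that differs with brightness does not. Ankrd1 minus Ankrd2 was -4.27, -5.82 and -5.95 in young mice and -4.22, -3.05 and -0.65 in aged mice. The aged mice were all higher, aged mouse 1 barely above young mouse 1. The difference between the groups was 2.71 on the log2 scale, with an exact two-sided permutation p of 0.1, the smallest that 3 mice against 3 can give, and 0.3 adjusted over the 3 pairs compared. This difference was 2.82 with normexp background correction and 2.62 after quantile normalization, each with an exact permutation p of 0.2. Within the first row of the slide alone, where aged mouse 1 is the only aged mouse, it was 1.13.

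Actn2 minus Actn3, a slow and fast fibre form against the fast fibre form alone, was -2.97, -2.55 and -3.47 in young mice and -2.03, -2.97 and -2.93 in aged mice. The difference of 0.36 had an exact permutation p of 0.5 (0.6 adjusted), and the groups overlapped. Myoz2 minus Myoz1, the slow against the fast calsarcin, was -3.77 ± 0.53 for the young and -3.38 ± 0.71 for the aged group (SD, n = 3), a difference of 0.39 with an exact permutation p of 0.6 (0.6 adjusted). Without aged mouse 1 these differences were 0.05 and -0.02. In aged mouse 1 they stood at -2.03 and -2.56, each the highest of the 6 mice.

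Aged mouse 1 had the highest signal of all 6 mice for 4 genes (Actn2, Ankrd2, Csrp3 and Myoz2) and the lowest for 2 (Actn3 and Myoz1). Aged mouse 3 was the highest for Ankrd1 and Flnc and the lowest for Tcap, and aged mouse 2 was the highest or lowest for none. Relative to the mean of the young mice, Csrp3 was 2.71 higher in aged mouse 1 but 0.59 and 0.29 higher in aged mice 2 and 3, whereas Ankrd1 was 2.43, 2.70 and 5.15 higher. The median over the 10 genes was 0.54 in aged mouse 1 and 0.08 in each of the other aged mice. The array of aged mouse 1 also had the largest share of probes well above background (53.8% against 48.7% to 50.7% on the other arrays) and the brightest negative controls (61.3 against 51.9 to 55.1). It lay in the slide row of the young mice, whereas the arrays of aged mice 2 and 3 lay in the other row. The contrast of aged mouse 1 with the other aged mice therefore coincides with the row. So does the contrast of aged mice 2 and 3 with the young mice. The part of these array traits in the values of aged mouse 1 was not tested. Young mice differed as well, with young mouse 3 the lowest of the 6 for Actn2, Ankrd1, Flnc and Myoz2.

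**Figure D3:**
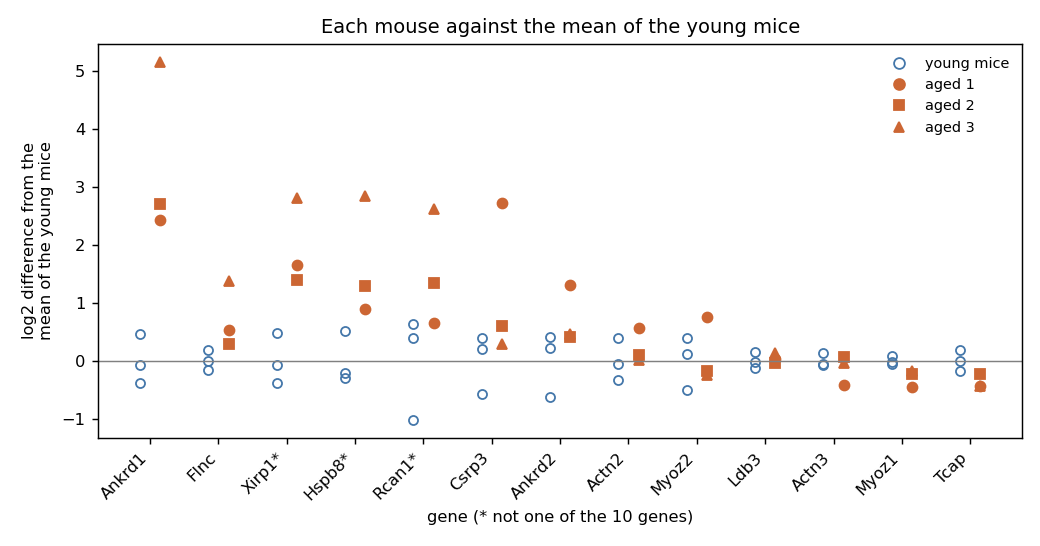
Log2 difference of each mouse from the mean of the young mice (vertical axis) for the 10 genes and 3 further genes marked with an asterisk (horizontal axis), with young mice as open circles and each aged mouse with its own symbol. Aged mouse 3 (triangles) is highest for Ankrd1, Flnc, Xirp1, Hspb8 and Rcan1, and aged mouse 1 (filled circles) for Csrp3, Ankrd2, Actn2 and Myoz2. The 3 further genes are some of the named genes of the lists, not all of them, and no rule set their choice. Of the same lists, Hspb7, Fhl1 and Fhl2 were highest in aged mouse 1 and Mypn in aged mouse 3.

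Other genes of the Z-disc and of the pathways that its proteins serve were grouped into 7 lists of 91 genes, of which 88 could be tested. No gene of the 88 reached the threshold (lowest limma adjusted p 0.143), and 18 had an unadjusted p under 0.05, 8 higher and 10 lower in aged mice. Each list is described by its counts and median, with no test of the list. The shares of all genes given above are the background to read them against.

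Of the list of other Z-disc and titin-linked genes, Xirp1 and Mypn are named as the largest differences without overlap. Xirp1 encodes Xin, which binds filamin C and marks damaged or remodelling myofibrils. It was at 3.43, 2.87 and 2.56 in young mice and 4.60, 4.35 and 5.75 in aged mice, without overlap, and its log2 fold change was 1.95 (limma, SE 0.41, adjusted p = 0.143). Mypn encodes myopalladin, a binding partner of CARP, and was 1.11 higher (adjusted p = 0.370 from limma). Its lowest value, -0.91, was that of young mouse 3, and aged mouse 2 (1.15) was barely above young mouse 1 (1.06). Of the 27 tested genes of this list, 13 had a higher and 14 a lower mean, with a median of -0.07. At an unadjusted p under 0.05, 3 were higher (Fhl1, Fhl2 and Xirp1) and 2 lower (Capn3 and Sorbs2).

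The chaperones that refold filamin or pass it on for degradation made up a list of 8 genes, 7 with a higher mean in aged mice and 1 lower, with a median of 0.46. Hspb8, the small heat shock protein that works with Bag3 on stretched filamin, was at 5.997, 5.28 and 5.19 in young mice and 6.38, 6.77 and 8.32 in aged mice. The groups did not overlap, and aged mouse 3 was again the highest. The log2 fold change of Hspb8 was 1.67 (limma, SE 0.51, adjusted p = 0.238). Bag3 overlapped between the groups, with a log2 fold change of 0.36 (limma, SE 0.24, adjusted p = 0.525). Of the 8 genes, Hspb8 alone did not overlap. Hspb8 and Hspb7 were the 2 of the 8 genes with an unadjusted p under 0.05. Hspb7 was highest in aged mouse 1 (5.72, against 5.01 in aged mouse 3). Its groups overlapped, with aged mouse 2 (4.24) below young mouse 2 (4.41).

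Calcineurin, which the calsarcins hold at the Z-disc, and its NFAT factors gave 2 genes with a higher and 8 with a lower mean of 10 tested (median -0.20). Rcan1, an inhibitor of calcineurin that is itself a calcineurin target, was at 3.73, 3.49 and 2.08 in young mice and 3.74, 4.43 and 5.71 in aged mice, with a log2 fold change of 1.53 (limma, SE 0.61, adjusted p = 0.327). Aged mouse 1 was barely above young mouse 1. Nfatc4 was lower by 0.505 on average (log2 fold change -0.505, adjusted p = 0.237 from limma), also without overlap. Of these genes, Rcan1 and Nfatc4 were the only ones with an unadjusted p under 0.05.

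Of 15 tested genes of the YAP, TEAD and SRF list, 6 had a higher and 9 a lower mean (median -0.05). Ccn2, a known target of YAP as Ankrd1 is, had lower signals in aged mice. It was at 4.21, 4.33 and 3.56 in young mice and 3.49, 1.80 and 1.25 in aged mice, with a log2 fold change of -1.86 (limma, SE 0.56, adjusted p = 0.233). Ccn1, another known YAP target of the list, was at 3.04, 3.38 and 1.74 in young and 3.66, 2.40 and 3.45 in aged mice, with overlap. Tead4 was 0.95 higher (adjusted p = 0.301 from limma), without overlap, but aged mouse 1 (-0.83) was barely above young mouse 3 (-0.85). Tead1 was the other gene with an unadjusted p under 0.05 and lower in aged mice (log2 fold change -0.51). The Tead1 groups did not overlap either, with 4.66 in the highest aged mouse and 4.98 in the lowest young mouse.

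Nonmuscle and other relatives of the 10 genes made up a list of 8, of which 1 had a higher mean in aged mice and 7 lower (median -0.08). The higher one was Csrp1, the relative of Csrp3 in smooth muscle and other cells. It was at 5.12, 5.15 and 5.32 in young mice and 5.58, 6.12 and 6.19 in aged mice, without overlap, with a log2 fold change of 0.77 (limma, SE 0.21, adjusted p = 0.202). Ankrd23, the third muscle ankyrin repeat protein, had a log2 fold change of -0.07 and overlapped between the groups.

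**Figure D4:**
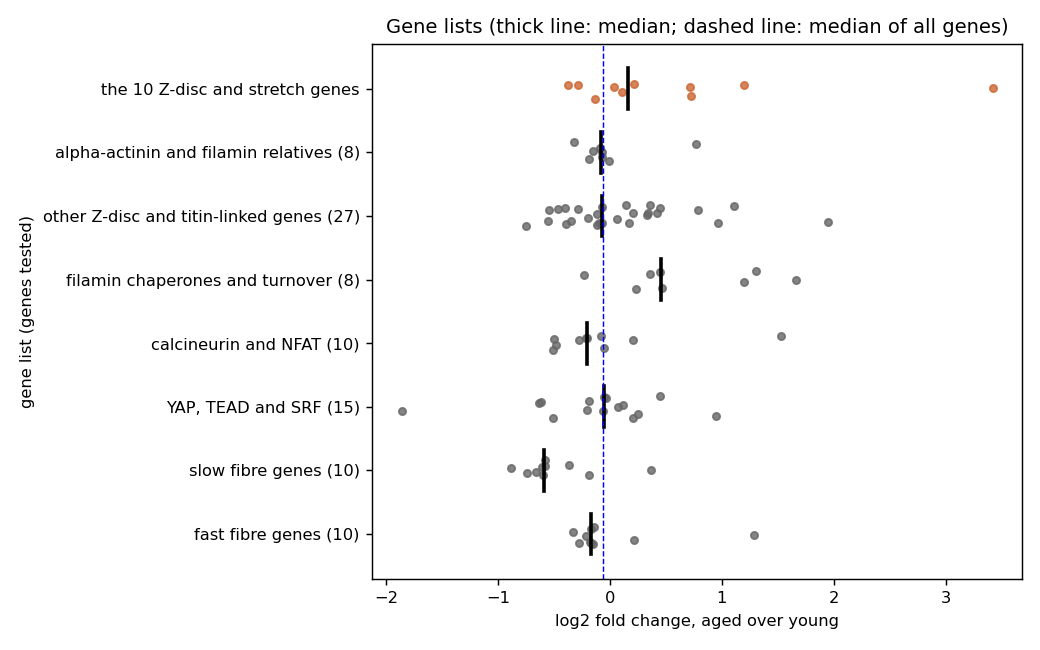
Log2 fold change of aged over young mice (horizontal axis) for each gene (points) of the 10 genes and of 7 further lists (vertical axis, number of genes tested in parentheses), with the median of each list as a thick line and the median of all genes as a dashed line. The medians are 0.16 for the 10 genes, 0.46 for the filamin chaperones and -0.59 for the slow fibre genes.

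Several of the 10 genes differ between fibre types, so fibre type genes were read beside them. Of 10 slow fibre genes, 9 had a lower mean in aged mice and 1 a higher one, with a median log2 fold change of -0.59. With an unadjusted limma p under 0.05, 5 were lower and 0 higher, against 8.36% and 6.07% of all genes. Without overlap, 4 were lower and 0 higher, against 13.9% and 7.92% of all genes. The summed signal of the slow fibre genes was 1381 to 1836 times the 75th percentile in young and 832 to 1268 times in aged mice. All 10 were well above background on all arrays. The largest differences without overlap were those of Myh7b (log2 fold change -0.88) and Atp2a2 (-0.74), with adjusted p of 0.285 and 0.232 from limma. Of the 10 genes, Myoz2, Csrp3 and Ankrd2 are known to be richer in slow fibres. All 3 overlapped between the groups, and without aged mouse 1 their log2 fold changes were -0.22, 0.44 and 0.43. Of 10 fast fibre genes, 8 had a lower mean and 2 a higher one (median -0.17), with summed signals of 5573 to 6569 in young and 4686 to 5811 in aged mice. Tnnt3 (-0.27) and Mylpf (1.29) were the named genes without overlap, and Mylpf was low in young mouse 3 (1.96 against 4.52 and 4.93). The part of fibre type in the values of the 10 genes was not tested.

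The tissue label was checked against markers. All 6 markers of skeletal muscle fibres were well above background on all arrays, with summed signals of 4072 to 4977 times the 75th percentile in young and 3399 to 4418 times in aged mice. Since Csrp3, Ankrd1 and Myoz2 are also heart genes, 6 heart markers were read. Myl7 was well above background on no array and Tnni3 on 3 of 6, whereas the summed signal of the 5 tested (102 to 336 in young and 84.8 to 311 in aged mice) came mostly from Actc1, which skeletal muscle also expresses. The summed signals of smooth muscle (69.8 to 118 in young, 65.0 to 75.9 in aged), satellite cell (0.355 to 0.401 and 0.270 to 0.291), fibroblast (94.4 to 112 and 21.5 to 60.0) and adipocyte markers (136 to 148 and 104 to 135) lay lower in aged mice or overlapped. Those of macrophage (17.7 to 19.4 and 19.3 to 24.3) and tendon markers (21.7 to 27.5 and 26.5 to 52.6) lay mostly higher, the tendon sum through Scx alone. The mean was higher in aged mice for 0 of 6 skeletal muscle fibre, 4 of 5 heart, 1 of 5 smooth muscle and 0 of 2 satellite cell markers. It was higher for 1 of 4 fibroblast, 4 of 5 macrophage, 0 of 4 adipocyte and 1 of 4 tendon markers. None of all these markers passed the threshold in limma. At an unadjusted p under 0.05, Adgre1, Cd68 and Scx were higher and Myh11, Calcr, Col1a1, Col1a2, Fmod, Mkx and Tnmd lower. Of these, Calcr and Mkx were well above background on all 3 young arrays but only 1 aged array, and Tnmd on 3 and 2, so they passed the filter on dim probes through the young group. Among the 4 tendon markers, Scx had a higher mean in aged mice (log2 fold change 1.35) and Fmod (-1.30), Mkx (-2.21) and Tnmd (-1.58) lower ones. Myf5 of the satellite cell list was well above background on no array. The part of other cell types in the values of the 10 genes was not tested.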

How the data were processed

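RNA of the gastrocnemius of 3 young and 3 aged mice was read on 6 single-colour arrays, on 1 slide and in 1 scan. The authors deposited Agilent Feature Extraction output (version 11.0.1.1 per the file headers, 9.5 in the submitters' processing notes). The values used are intensities on a linear scale, already background-subtracted and detrended by the authors' software and not scaled between arrays. The deposited value table held the same intensities. The number of arrays limits the precision. No non-control spot was saturated.

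Flagged spots were left out (161 to 212 per array), log2 signals were averaged over the spots of a probe, and the 75th percentile over the probes of each array (210 to 311 on the linear scale) was subtracted. Of 55681 probes, 28331 were given a symbol through RefSeq accessions of GRCm38.p6, and 12 were left out as flagged on some array. Array coordinates are not used here, because its design used another build. Probes were kept when well above background on at least 3 arrays, and the brightest kept probe represented its gene (20900 genes, 13843 with a symbol). The comparison used lmFit and eBayes of limma 3.58.1 (R 4.3.3), adjusted by Benjamini-Hochberg over all genes. The fit was also run on simulated data with independent normal noise for each gene. These held no effect of row, array or brightness, so they cannot show how the fit handles such effects. The p-values of the fit set the difference between the groups against the spread between arrays within a group, with the variance moderated across genes.

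The 10 genes, the 7 further lists and the 8 marker lists were chosen with earlier results of these data known. Named genes are the 10, and of each list those past the threshold and the 2 largest differences without overlap on probes detected on all arrays. Other genes are named where a count or comparison needed it, after their values were seen (Capn3, Fhl1, Fhl2, Sorbs2, Bag3, Hspb7, Tead1, Ccn1, Ankrd23 and the markers). Alternatives were normexp background correction (offset 50, on median spot signals), quantile, median and detected-probe scaling, 2 other filters, mean probes, the value table, a variance trend, blocking on slide row or on replicate number, and dropping each mouse in turn.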

Additional observations from a re-analysis of the deposited data

How the results depend on the processing

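No alternative of the 17 brought any of the 10 genes past the threshold. Ankrd1, Ankrd2, Csrp3, Flnc, Actn2, Myoz1 and Tcap kept their direction in all 17, as did the Ankrd1 minus Ankrd2 and Actn2 minus Actn3 differences. For some alternatives this was fixed in advance. The other filters, the value table, the variance trend, mean probes and the replicate block leave the log2 fold change of a gene with 1 probe unchanged. Median and detected-probe scaling leave the differences between relatives unchanged. Actn3 was at 0.073 after quantile normalization, and with scaling to the median Myoz2 was at -0.042 and Ldb3 at -0.11. Scaling to the median moved the median of all genes to -0.21. Relative to it the median of the 10 genes was 0.23, the same as in the setting used by construction, because this scaling shifts all genes alike. With 1 mouse left out, Actn3 ranged from -0.23 to 0.0065 (higher without aged mouse 1), Ldb3 from -0.027 to 0.11 (lower without young mouse 1 or aged mouse 3), Myoz2 from -0.22 to 0.30, Myoz2 minus Myoz1 from -0.017 to 0.62 and the median of the 10 genes from 0.04 to 0.36. Blocking on slide row, this median was 0.54, a fit that rests on aged mouse 1, the only aged mouse in the row of the young mice, and Csrp3 was at 2.71.

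Instead of 53 genes past the threshold, there were 8 with no filter on dim probes (36710 genes tested), 35 with the filter set to all 6 arrays, and between 1 (without aged mouse 3) and 199 (without aged mouse 1) with 1 mouse left out. With the replicate number as a block there were 5, and all 10 genes kept their log2 fold change with none past the threshold. The replicate numbers name different mice, and mice with the same number did not deviate together (correlations of -0.06, -0.27 and 0.03 over genes), so the pairing is one of number only.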
